A study of Homo sapiens with 7 samples.

Results

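The giant neuronal adhesion genes described here are 9 very long genes of cell-cell contact in the nervous system: NRXN3, NLGN1, LRRTM4, CNTN4, CNTN5, CNTN6, DSCAM, CTNNA2 and CSMD1. Their members were taken by symbol, as every probe that the deposited array tables name for one of these genes, out of 27045 named genes. They held 805 probes on the larger array design and 209 on the smaller one, and 160 of these probes were present on all 7 arrays. The first and last probe of a gene lay between 294.8 kb (CNTN6) and 2049 kb (CSMD1) apart, on 6 chromosomes.

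The data are DNA replication timing on 7 two-colour oligonucleotide arrays in 2 established human cell lines, K562, a line from a chronic myeloid leukaemia, and U2OS, a line from an osteosarcoma. K562 was represented by 3 arrays, 1 each of the sample labelled with the new sorting method, the sample labelled with the old sorting method and the sample labelled 44k, and U2OS by 4 arrays, 2 labelled manual and 2 labelled automated. In every sample growing cells took up the thymidine analogue bromodeoxyuridine (BrdU) at 50 µM for 2 h, 80000 cells per fraction were sorted from early S phase and from late S phase, and the BrdU-containing DNA was immunoprecipitated, put through whole genome amplification and given the dye Cy3 (early) or Cy5 (late). No genotype or drug separated the samples. The dyes were assigned in the same way on every array. No source states that samples of a line came from separate cultures, so the p-values below measure the spread between these samples, which may be technical. Each fit of both lines used 1 spread per gene or window, shared by the lines. SEs and p-values given for K562 alone therefore rest in part on the U2OS arrays. No slide carried both lines, so line and slide cannot be told apart.

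In S phase the genome is copied in large domains that fire in a set order, with gene-rich, transcribed domains early and gene-poor, mostly silent domains late. Very long genes of the nervous system often lie in late-copied, gene-poor DNA in cells that do not use them. NRXN3 encodes a presynaptic neurexin; NLGN1 and LRRTM4 encode postsynaptic partners of neurexins; CNTN4, CNTN5 and CNTN6 are GPI-anchored immunoglobulin-domain contactins of axons; DSCAM is an immunoglobulin-domain receptor of neuronal self-avoidance; CTNNA2 is the neuronal alpha-catenin that ties cadherins to actin; and CSMD1 is a membrane protein of CUB and sushi domains that restrains complement.

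The value used throughout is log2(early/late), the log2 ratio of the Cy3 to the Cy5 signal of a probe, set to 0 at each array's median probe, so that a negative value means later replication than the median probe and a positive value earlier. Depth in the sense of reads does not apply, and the precision rests on the number of arrays. Over all probes, 44.8% to 93.8% of early-channel spots and 8.83% to 96.6% of late-channel spots per array were well above background, the lowest late-channel share being that of the 44k array. That array is called 44k in its label, while its table holds 62976 features against 180880 on the other 6; the name is kept here only as the label's. On it 49.7% of late-channel signals were surrogate values that the scanner software puts in place of signals it cannot tell from background. Of the control loci of the protocol, DPPA2 (late control) was negative on 7 of 7 arrays, and BMP1 (early control) was positive on the 6 arrays of the larger design, at 0.78 or higher, but lay at -3.32 on the 44k array, where it rested on 1 probe. The early control thus went against its label on the 44k array, and results are given with and without that array where it decides them.

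Each gene's value is a mean over 60-base probes, of which these few, present on all 7 arrays, show what was hybridised at the places the results turn on. The strand was not given; the sequences are written as deposited, in lower case, with positions on hg19. The probe nearest the middle of the span is shown for CTNNA2 (chr2:80314156-80314215), DSCAM (chr21:41775648-41775707), NRXN3 (chr14:79535540-79535599) and CNTN6 (chr3:1337273-1337332), together with the CTNNA2 probe of the largest difference between the lines (chr2:80515557-80515616).
CTNNA2 middle: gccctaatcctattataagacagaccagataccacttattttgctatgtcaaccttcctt
CTNNA2 largest difference: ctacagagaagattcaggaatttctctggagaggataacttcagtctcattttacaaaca
DSCAM middle: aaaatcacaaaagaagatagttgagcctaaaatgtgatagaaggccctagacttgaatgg
NRXN3 middle: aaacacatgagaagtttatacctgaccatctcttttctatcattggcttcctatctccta
CNTN6 middle: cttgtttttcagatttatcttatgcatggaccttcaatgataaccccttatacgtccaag

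The CNTN6 probe was late on all 7 arrays, from -2.90 on the new-sorting K562 array to -0.97 on the first manual U2OS array. The CTNNA2 probe of the largest difference, chosen for that difference and so given as a description, stood at 1.48, -0.24 and 1.09 on the K562 arrays of new sorting, old sorting and 44k, and between -3.34 and -1.43 on the 4 U2OS arrays. It was well above background on 3 of 7 arrays in the early channel and on 3 of 7 in the late channel, and 4 arrays had a surrogate signal there, so several of these ratios are bounds rather than measured levels. The middle probe of DSCAM was negative on all 7 arrays, at -3.31, -1.83 and -2.99 in K562 and between -2.89 and -0.62 in U2OS, with an early channel well above background on 2 of the 7. The middle probe of CTNNA2 was positive on the 3 K562 arrays (0.54 to 0.75), at 0.30 and 1.26 on the manual and -1.48 on both automated U2OS arrays. The middle probe of NRXN3 was negative on all 7 arrays, from -2.96 to -0.48. Mean GC content was 36.3% over the members' probes and 36.5% over all probes. The median was 36.7% for every member, for its flanks and for all probes. Probe GC was thus alike throughout and does not measure the GC content of the genes' DNA. Whether a probe lies in an exon or an intron was not analysed here.

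All 9 genes replicated late in both lines: each of the 63 values (9 genes on 7 arrays) was below 0. Of 4724 genes with at least 3 probes on every array, 27.4% had negative means in both lines, against 9 of 9 members and 78.5% of the 261 other genes spanning over 500 kb. The members' median was -2.21 in K562 and -2.19 in U2OS. Centring on the array mean or dropping spots with surrogate signals each put 1 of the 63 values above 0, with highest values of 0.09 and 0.03.

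**Figure D1:**
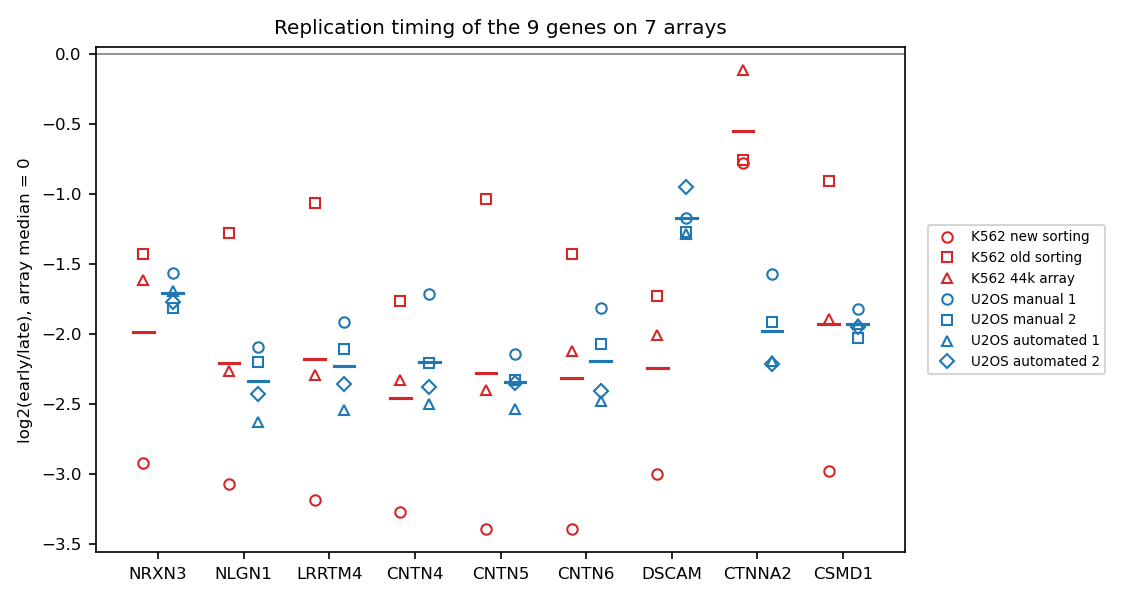
Mean log2(early/late) of each gene's probes (y axis, array median set to 0) on each of the 7 arrays, K562 in red and U2OS in blue, with a short bar at the mean of each line. Every symbol lies below 0; the K562 arrays of CTNNA2 sit above its U2OS arrays and those of DSCAM below.

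In U2OS the order of the means ran from CNTN5 (-2.34 ± 0.16, SD, n = 4) and NLGN1 (-2.34 ± 0.24) as the latest, through LRRTM4 (-2.23 ± 0.28), CNTN4 (-2.20 ± 0.34), CNTN6 (-2.19 ± 0.31), CTNNA2 (-1.98 ± 0.30), CSMD1 (-1.93 ± 0.09) and NRXN3 (-1.71 ± 0.11), to DSCAM (-1.17 ± 0.15) as the least late. Within arrays, 4 steps of this order held on 4 of 4 arrays: NLGN1 later than LRRTM4, CNTN6 later than CTNNA2, CSMD1 later than NRXN3 and NRXN3 later than DSCAM. Of these, the step from NRXN3 to DSCAM was the widest, at 0.54 ± 0.20 (SD over arrays). The other neighbours in the order changed places on some arrays, and CNTN5 and NLGN1 differed by 0.0010 ± 0.11.

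In K562 the spread between arrays was much larger. The means ran from CNTN4 (-2.46 ± 0.76, SD, n = 3) through CNTN6 (-2.31 ± 0.998), CNTN5 (-2.28 ± 1.18), DSCAM (-2.25 ± 0.67), NLGN1 (-2.21 ± 0.90), LRRTM4 (-2.18 ± 1.06), NRXN3 (-1.99 ± 0.81) and CSMD1 (-1.93 ± 1.04) to CTNNA2 (-0.55 ± 0.38). CTNNA2 was earlier than CSMD1 on 3 of 3 arrays, by 1.37 ± 1.08, while every other pair of neighbours differed by less than the SD of its difference. Set against all genes tested, 2.35% of genes were later than CNTN4 in K562 and 30.4% were later than CTNNA2; in U2OS 1.65% were later than CNTN5 and 18.5% later than DSCAM.

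The spread in K562 followed the arrays. On the new-sorting array 8 members lay between -3.40 and -2.92 and on the old-sorting array between -1.77 and -0.91, so that the new-sorting value was lower by 1.27 (DSCAM) to 2.35 (CNTN5). CTNNA2 was the exception, with -0.78 on the new-sorting, -0.76 on the old-sorting and -0.12 on the 44k array. The median of new minus old over all 4724 genes was 0.07. Over all probes the new-sorting array had the wider scale, with a median absolute deviation of 2.32 against 1.69 on the old-sorting array. Whether the lower values on the new-sorting array are particular to the members was not tested. With 1 array per sorting method the differences between new and old sorting have no replicate check. Beside them stands the brightness of the spots: 14.4% of the members' early-channel spots were well above background on the old-sorting array, 63.5% on the new-sorting array and 68.8% on the 44k array, where 16.3% of their late-channel spots were. The parts of scale and brightness in the K562 spread were not tested.

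A probe whose early channel was not well above background on any array of a line has a weak early signal there. Only a surrogate value is a bound. Surrogates were 2.26% (44k array) to 29.2% (old-sorting array) of the members' early-channel spots. Probes with a weak early signal on every array of the line made up 8.33% (CTNNA2), 22.7% (DSCAM) and up to 52.1% (NLGN1) of a member's probes in K562, and from 1.64% (NRXN3) to 44.0% (CSMD1) in U2OS. With dim spots dropped, meaning those well above background in neither channel, all 63 values were still below 0. A spot dim in the early channel alone is kept by this filter, so the filter cannot test the part of these weak early signals.

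The comparison of the lines asked whether these genes are copied at the same time in a blood-derived and a bone-derived line. CTNNA2 was earlier in K562 and DSCAM was later in K562, and for the other 7 no difference was called. In limma with Benjamini-Hochberg adjustment over 4724 genes, a call needed an adjusted p below 0.05 together with a change of 1 or more in size. Under this rule 25.2% of all genes were called, 11.8% as earlier and 13.4% as later in K562, so that 2 called members of 9 is near the background share. The 2 lines' arrays did not overlap for the same 2 members, against 37.2% of all genes.

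CTNNA2 (chr2:79743691-80875558, 92 probes on the larger design) stood at -0.78, -0.76 and -0.12 in K562 and at -1.57, -1.92, -2.20 and -2.22 in U2OS. Every K562 array was above every U2OS array. The difference was 1.42 (SE 0.28, 95% interval 0.82 to 2.02, adjusted p = 0.00168 by limma). It lay between 1.20 and 1.56 with any 1 array left out and stayed called, but it was 0.52 (adjusted p = 0.159) with normexp background correction and an offset of 50, 0.59 (adjusted p = 0.0961) with loess on those values and 0.54 (adjusted p = 0.102) without background correction.

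DSCAM (chr21:41394343-42214492, 85 probes) stood at -3.00, -1.73 and -2.01 in K562 and at -1.17, -1.27, -1.29 and -0.95 in U2OS. Every K562 array was below every U2OS array. For DSCAM the difference was -1.08 (SE 0.31, 95% interval -1.75 to -0.40, adjusted p = 0.0180 by limma), close to the minimum of 1. The call ended without the new-sorting K562 array (-0.70, adjusted p = 0.0580) and without the second automated U2OS array (-1.003, adjusted p = 0.0543), and also with mean centring (-0.99), scaling to one spread (-0.98), without background correction (-0.68), without dim spots (-0.91, adjusted p = 0.0823), without surrogate spots (-0.86, adjusted p = 0.0751) and over genes with 1 probe or more (adjusted p = 0.0697).

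For the other 7 members the differences ran from -0.28 (NRXN3) to 0.13 (NLGN1), with adjusted p between 0.582 and 0.994. Their 95% intervals were wide. CNTN4 had -0.25 (-1.01 to 0.50), CNTN5 0.06 (-0.87 to 0.99995), CNTN6 -0.12 (-0.98 to 0.74), CSMD1 0.01 (-0.84 to 0.85), LRRTM4 0.05 (-0.84 to 0.94), NLGN1 0.13 (-0.66 to 0.93) and NRXN3 -0.28 (-1.01 to 0.46). With 3 and 4 arrays, differences within these bounds could not be told from 0, and they are not shown to be absent.

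**Figure D2:**
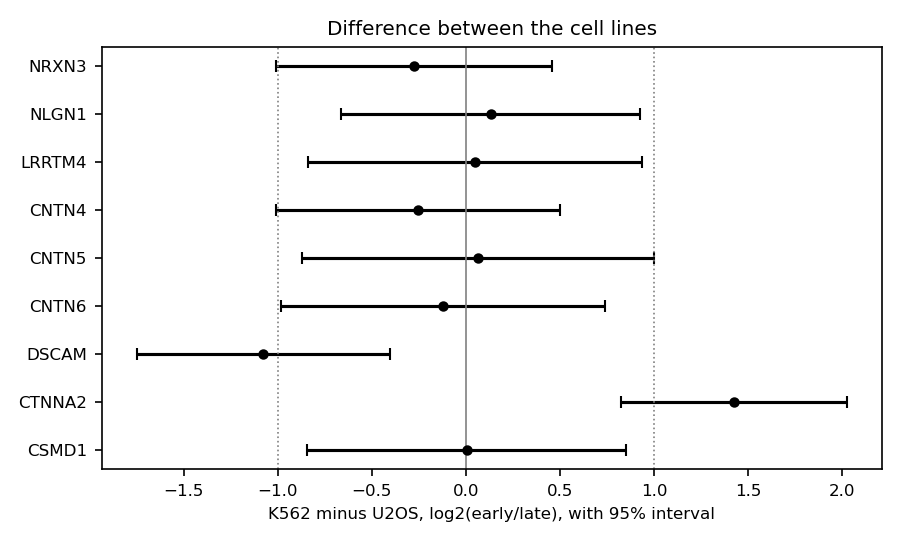
Difference of the line means in log2(early/late), K562 minus U2OS (x axis), for each gene with its 95% interval from limma; dotted lines mark the minimum of 1 in either direction. CTNNA2 at 1.42 and DSCAM at -1.08 lie past the lines, while the intervals of the other 7 genes include 0.

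The difference in CTNNA2 was not spread evenly along the gene. With the probe span cut into 3 equal parts, K562 was late in the part with the lowest coordinates (-1.72 ± 0.65, SD, n = 3), earliest in the middle part (0.49 ± 0.67) and between these in the part with the highest coordinates (-0.42 ± 0.41). In U2OS the same parts were at -2.17 ± 0.41, -1.77 ± 0.26 and -1.96 ± 0.27 (SD, n = 4). CTNNA2 is read towards higher coordinates, so its low end holds the 5′ part. Of its 12 windows of 100 kb, 8 were negative in K562 and 12 in U2OS, in the means of the 6 arrays of the larger design. In the window chr2:80300001-80400000 the K562 arrays were at 0.93 (new sorting) and 0.51 (old sorting) and the U2OS arrays between -1.73 and -1.23. The window at the gene's low end, chr2:79700001-79800000, had -2.18 in K562 and -2.21 in U2OS. LRRTM1, a leucine-rich repeat synaptic gene known to be nested in an intron of CTNNA2, is named by 0 probes of these arrays and so has no value of its own.

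In windows of 250 kb with at least 3 probes on each array, tested by limma over 8913 windows, 24.0% of all windows were called, 10.6% as earlier and 13.3% as later in K562. Of 37 windows inside the members, 3 were called earlier and 3 later. All 3 earlier windows lay in CTNNA2. In chr2:80250001-80500000, the widest difference, K562 stood at 0.92, 0.13 and 1.28 on the new-sorting, old-sorting and 44k arrays and U2OS between -1.97 and -1.33, a difference of 2.48 (SE 0.30, adjusted p = 0.000212). The next window, chr2:80500001-80750000, differed by 2.16 (SE 0.25, adjusted p = 0.000187) and the one before it, chr2:80000001-80250000, by 1.30 (SE 0.27, adjusted p = 0.00512). The first window of the gene (0.28, adjusted p = 0.630) and the last (0.34, adjusted p = 0.362) were not called.

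**Figure D3:**
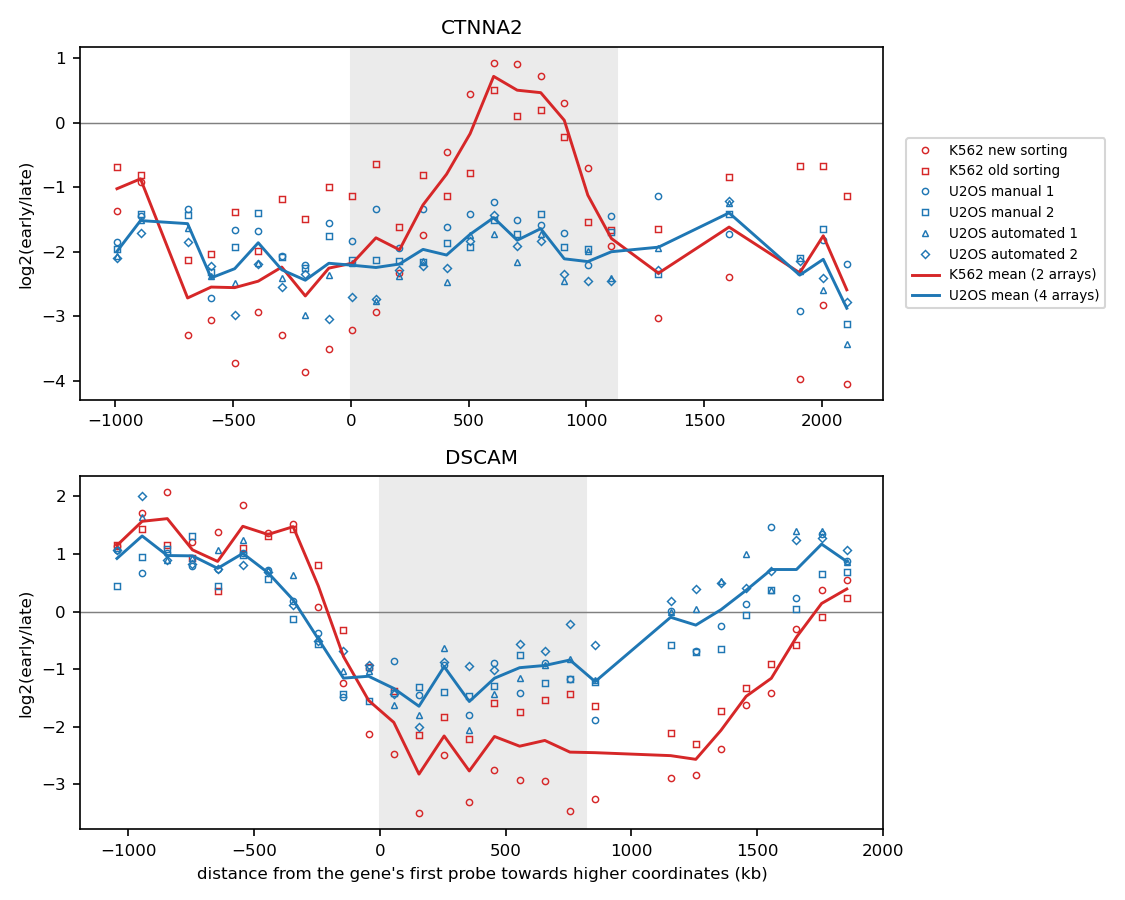
Mean log2(early/late) in 100-kb windows (y axis) along CTNNA2 and DSCAM and their flanks, by distance in kb from the gene's first probe (x axis; grey, the probe span of the gene), for each of the 6 arrays of the larger design, with lines at the mean of the 2 K562 and the 4 U2OS arrays. K562 rises above 0 inside CTNNA2 while U2OS stays late, and K562 stays late on the high side of DSCAM, where U2OS rises.

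The 3 windows called later in K562 were 2 in DSCAM and 1 in NRXN3. In DSCAM, chr21:41750001-42000000 differed by -1.18 (SE 0.29, adjusted p = 0.0121) and chr21:42000001-42250000 by -1.26 (SE 0.38, adjusted p = 0.0284). DSCAM is read towards lower coordinates, so the second of these holds its 5′ end. The difference went on beyond that end. In the flank window chr21:42500001-42750000, which covers probes named for BACE2 (an aspartyl protease related to the beta-secretase BACE1) and FAM3B, K562 stood at -2.80, -2.13 and -2.07 and U2OS at -0.38, -0.66, 0.14 and 0.36 (manual 1 and 2, automated 1 and 2), a difference of -2.19 (SE 0.31, adjusted p = 0.000503). The next window, chr21:42750001-43000000, which covers probes of MX1, an interferon-induced antiviral GTPase, and TMPRSS2, a membrane serine protease, differed by -1.76 (SE 0.26, adjusted p = 0.000758). On the other side of the gene the sign turned: chr21:41000001-41250000 was earlier in K562 by 1.01 (SE 0.21, adjusted p = 0.00452). In 100-kb windows of the high flank, 7 of 9 were negative in K562 and 3 of 9 in U2OS.

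NRXN3 (chr14:78680892-80330422, 122 probes) showed no called difference as a whole, with -2.92, -1.43 and -1.61 in K562 and -1.57, -1.82, -1.69 and -1.77 in U2OS, and 1 of its 6 windows was called, as later in K562. The flanks held the windows that were earlier in K562. In the low-flank window chr14:78500001-78750000, which reaches the start of the gene, K562 stood at 0.75, 0.06 and 0.49 and U2OS between -1.61 and -0.93, a difference of 1.67 (SE 0.25, adjusted p = 0.000814). In 100-kb windows, the mean of K562 fell below 0 from chr14:78700001-78800000 (-0.26) onwards, and that of U2OS already from chr14:78400001-78500000 (-0.14). The first window inside the gene, chr14:78750001-79000000, differed by 0.79 (SE 0.20, adjusted p = 0.0141), below the minimum of 1 and so not called. Farther into the gene, chr14:79250001-79500000 was later in K562 (difference -1.07, SE 0.33, adjusted p = 0.0335). Beyond the high end, chr14:81250001-81500000 was again earlier in K562, by 1.49 (SE 0.20, adjusted p = 0.000414), with 0.21, 0.53 and 0.45 in K562 and -1.23 to -0.99 in U2OS. Most of that window lies more than 1 Mb from the gene.

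In the remaining members no window inside the gene was called, in 23 windows, where 24.0% of all windows were called. Their flanks held 3 called windows. For LRRTM4 the window at the outer edge of the low flank, chr2:75750001-76000000, was late in K562 (-1.89, -2.08 and -0.99) and early in U2OS (0.34 to 0.66), a difference of -2.19 (SE 0.28, adjusted p = 0.000317). A window was counted with a flank where any part of it lay within 1 Mb of the gene, and most of this window lies farther out. For CNTN4, chr3:4000001-4250000 at the outer edge of the high flank, also mostly farther out than 1 Mb, was less late in K562 by 1.52 (SE 0.28, adjusted p = 0.00235). For CSMD1, chr8:2000001-2250000 in the low flank was later in K562, by -1.15 (SE 0.24, adjusted p = 0.00533). The widest window differences of CNTN5 (0.80 in chr11:100500001-100750000, adjusted p = 0.0716), CNTN6 (-0.75 in chr3:500001-750000, adjusted p = 0.156) and NLGN1 (0.74 in chr3:175000001-175250000, adjusted p = 0.270) were not called. Over all flank windows of the members, 4 of 32 on the low side and 4 of 27 on the high side were called, beside 24.0% of all windows. The flank windows of CNTN4 and CNTN6 include windows inside the other gene. The high flank of CTNNA2 had no window with 3 probes on each array.

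**Figure D4:**
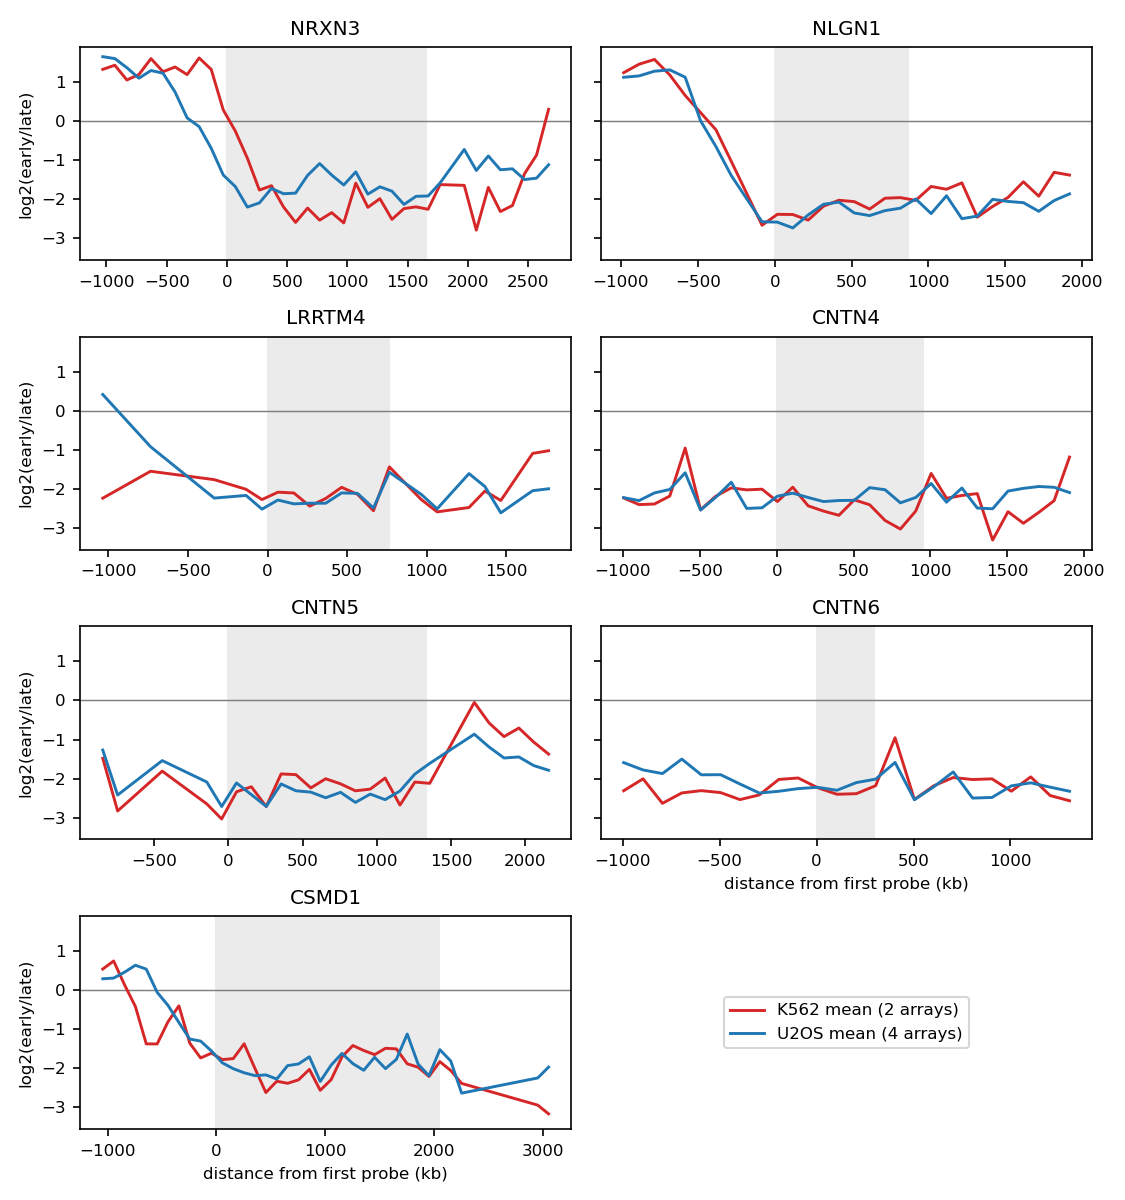
Mean log2(early/late) in 100-kb windows (y axis) along the other 7 genes and their flanks, by distance in kb from the first probe (x axis; grey, the probe span), for the mean of the 2 K562 arrays (red) and of the 4 U2OS arrays (blue) of the larger design. Both lines stay below 0 within the grey spans. The low flanks of NRXN3, NLGN1 and CSMD1 reach above 0 in both lines, as do the low flank of LRRTM4 in U2OS and the high flank of NRXN3 in K562. CNTN4 and CNTN6 have windows below 0 on both sides.

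To set each gene against its surroundings, the mean of the probes within 1 Mb on either side was subtracted on each array. NRXN3, NLGN1, DSCAM, CSMD1 and CNTN5 were later than their flanks in both lines; CTNNA2 was earlier than its flanks in K562; CNTN4, CNTN6 and LRRTM4 passed the test in neither line. Over all 4724 genes, 54.7% differed from their flanks in K562 and 48.2% in U2OS (limma, adjusted p under 0.05), and 21.9% and 20.4% were later than their flanks, against 5 of 9 members in each line. For the members called in K562, the SD over arrays ran from 0.40 (NLGN1) to 1.005 (CNTN5) in K562. In U2OS it ran from 0.06 (NLGN1) to 0.21 (DSCAM) for the same genes. Because the fit shares 1 spread, the K562 SEs and p-values below understate the spread of the K562 arrays.

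DSCAM was the farthest below its flanks in K562, by -2.08 (SE 0.20, adjusted p = 2.44e-06), and NRXN3 in U2OS, by -1.61 (SE 0.20, adjusted p = 2.26e-05). DSCAM in U2OS was at -1.48 (SE 0.17), NRXN3 in K562 at -1.80 (SE 0.23), and NLGN1 at -1.60 (SE 0.17) in K562 and -1.36 (SE 0.15) in U2OS. These 6 values had adjusted p of 2.26e-05 or lower by limma, and they were negative on every array. With normexp and an offset of 50 they were smaller, from -1.38 (DSCAM in K562) to -0.61 (DSCAM in U2OS), and still passed the test. Beside these genes the low flank was early. It stood at 1.002 ± 0.52 in the K562 arrays (SD, n = 3) and at 0.84 ± 0.05 in the U2OS arrays (SD, n = 4) for NRXN3, at 0.40 ± 0.11 and 0.21 ± 0.13 for NLGN1, and at 0.83 ± 0.09 and 0.39 ± 0.11 for DSCAM. The high flanks of NRXN3 and NLGN1 were late in both lines, between -2.15 and -1.28, while that of DSCAM was late in K562 (-1.50 ± 0.35) and not in U2OS (0.21 ± 0.35).

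For CSMD1 the low flank was at -0.48 in K562 and -0.12 in U2OS, and the high flank at -2.11 and -1.90. The gene was at -1.93 in both lines, later than its low flank and close to its high flank. CSMD1 stood at -1.57, -0.17 and -0.98 against both flanks together on the new-sorting, old-sorting and 44k arrays. Its mean was -0.91 (SE 0.22, adjusted p = 0.00278) in K562, or -0.58 (adjusted p = 0.0495) without the new-sorting array, and -1.24 (SE 0.19, adjusted p = 0.000116) in U2OS, and the K562 value was -0.18 (adjusted p = 0.445) when only flank probes without a gene name were used and -0.32 (adjusted p = 0.0540) without background correction. For CNTN5 the low flank was at -2.33 in K562 and -2.09 in U2OS, and the high flank at -0.72 and -1.43. With -2.28 and -2.34 the gene was later than its high flank in both lines, but not later than its low flank in K562. Against both flanks together CNTN5 lay at -1.01 (SE 0.27, adjusted p = 0.00575) in K562 and -0.67 (SE 0.23, adjusted p = 0.0276) in U2OS. Its K562 value was 0.15 on the old-sorting array, against -1.69 and -1.48 on the others. The K562 call of CNTN5 ended without the new-sorting array (-0.67, adjusted p = 0.0953) or without the 44k array (-0.77, adjusted p = 0.0790), and the U2OS call ended without any 1 of the 4 U2OS arrays (-0.72 to -0.64, adjusted p from 0.0509 to 0.0829), and also with normexp and an offset of 50 (-0.25, adjusted p = 0.238), with loess (-0.25, adjusted p = 0.184) and without background correction (-0.21, adjusted p = 0.223). Between the lines CNTN5 differed past the threshold only when the old-sorting array was left out (-0.91, adjusted p = 0.00760).

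**Figure D5:**
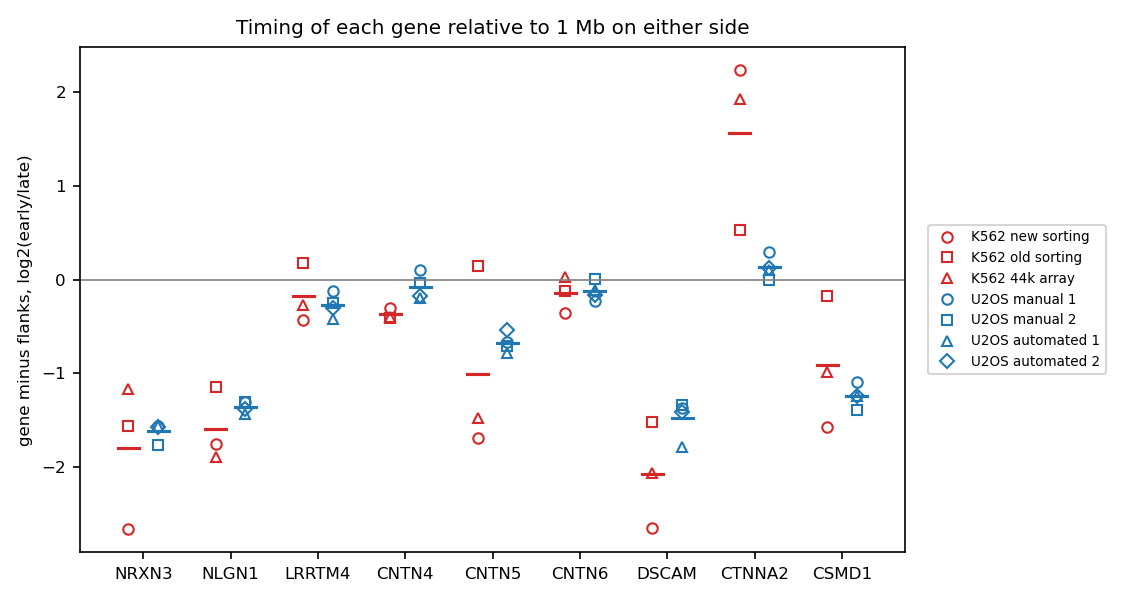
Mean of each gene's probes minus the mean of the probes within 1 Mb on either side, in log2(early/late) (y axis), on each of the 7 arrays, K562 in red and U2OS in blue, with a short bar at the mean of each line. CTNNA2 is above 0 on the 3 K562 arrays, at 0.53 or higher, and within 0.30 of 0 in U2OS; NRXN3, NLGN1 and DSCAM are at -1.14 or lower on every array.

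The contactins CNTN4 and CNTN6 differed little from what surrounds them. CNTN4 (chr3:2145291-3099406) lay at -0.37 (SE 0.15, adjusted p = 0.0535) against its flanks in K562 and -0.08 (SE 0.13, adjusted p = 0.661) in U2OS. The K562 value of CNTN4 passed the test under some settings, such as scaling to one spread (-0.37, adjusted p = 0.0442) and probes on all 7 arrays (-0.50, adjusted p = 0.0396). CNTN6 (chr3:1145284-1440140) lay at -0.15 (SE 0.15) and -0.13 (SE 0.13), with adjusted p of 0.433 and 0.466. Their flanks were late on both sides in both lines, between -2.36 and -1.98. The 2 genes are neighbours, and their flanks share 40 probes, so these are not independent surroundings. Of the flank probes of CNTN4, 22 of 118 are named for CNTN6, and of those of CNTN6, 24 of 120 are named for CNTN4. Each gene was thus set in part against the other. LRRTM4 (chr2:76984886-77746500) lay at -0.18 (SE 0.17) in K562 and -0.27 (SE 0.14) in U2OS, with adjusted p of 0.372 and 0.133.

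CTNNA2 stood above its flanks in K562 by 1.57 (SE 0.25, adjusted p = 0.000140), with 2.24, 0.53 and 1.93 on the new-sorting, old-sorting and 44k arrays, and by 0.13 (SE 0.22, adjusted p = 0.651) in U2OS. The flanks themselves stood at -2.12 ± 0.87 in the K562 arrays (SD, n = 3) and at -2.11 ± 0.25 in the U2OS arrays (SD, n = 4). The lines differed in this measure by 1.43 (SE 0.33, adjusted p = 0.00519 by limma), where 31.0% of all genes were called. Each array left out in turn kept the call, with differences from 1.098 to 1.95; it ended without background correction (0.60, adjusted p = 0.0807). CTNNA2 was the 1 member called here. DSCAM had -0.60 (SE 0.27, adjusted p = 0.105), and passed the test without the old-sorting array (-0.88, adjusted p = 0.0188), with normexp and an offset of 50 (-0.77, adjusted p = 0.0406) and over the probes on all 7 arrays (-0.98, adjusted p = 0.0276).

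Timing along the genes was compared as the mean of the lowest 1 of 3 equal parts of the span minus that of the highest, in genes spanning at least 300 kb. CNTN6, at 294.8 kb, was not among the 458 genes tested. Over those genes 50.2% differed between their ends in K562, 47.2% in U2OS, and 39.7% in the comparison of the lines. CTNNA2 had a later low end in K562, by -1.29 (SE 0.27, adjusted p = 0.000459), with -2.09, -0.29 and -1.50 on the 3 arrays, and -0.21 (SE 0.23, adjusted p = 0.485) in U2OS. Here too the K562 SE rests in part on the spread of the U2OS arrays. The difference of the lines was -1.08 (SE 0.35, adjusted p = 0.0211), and this call ended without the new-sorting array (-0.68, adjusted p = 0.132), without the 44k array (-0.97, adjusted p = 0.0892), without the first manual U2OS array (-0.97, adjusted p = 0.0574) and under 5 of the other settings given in the closing section.

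CNTN4 had an earlier low end in K562, by 0.65 (SE 0.22, adjusted p = 0.0182), with 0.21, 0.93 and 0.80 on the 3 arrays, a call that ended without the old-sorting array (0.51, adjusted p = 0.103) or the 44k array (0.57, adjusted p = 0.109); U2OS was at -0.01 (SE 0.19, adjusted p = 0.980) and the difference of the lines was 0.65 (SE 0.28, adjusted p = 0.0751), and it was 0.87 (adjusted p = 0.0300) without the new-sorting array. Over probes on all 7 arrays the CNTN4 values were 0.57 (adjusted p = 0.112) in K562 and 0.78 (adjusted p = 0.0173) in U2OS, and their difference had the other sign, at -0.21 (adjusted p = 0.694). The ends of NRXN3, NLGN1, LRRTM4, CNTN5, DSCAM and CSMD1 did not pass the test in either line, with values from -0.30 to 0.28 in K562 and from -0.36 to -0.05 in U2OS.

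The handling of the U2OS samples was the remaining condition. Of 11309 genes with at least 3 probes on the 4 U2OS arrays, 3.02% differed between automated and manual samples (limma, adjusted p under 0.05), and 0 of 9 members did; 0 members had an unadjusted p under 0.05. The estimate of automated minus manual was below 0 for 8 of 9 members, down to -0.01 in size (CSMD1), and the median over all genes was -0.16. CNTN6 had the lowest p, with -2.44 on automated and -1.94 on manual arrays, a difference of -0.50 (SE 0.22, adjusted p = 0.201). The estimate for DSCAM was 0.10 (SE 0.23), with overlapping arrays: -1.29 and -0.95 automated, -1.17 and -1.27 manual. With normexp and an offset of 50, with loess on those values, or without background correction, 7 of 9 members were called lower on the automated arrays in each case, where 53.9%, 55.7% and 49.6% of all genes were called in either direction. Beside this stands the brightness of the spots, whose part in the result was not tested: 67.7% and 54.0% of the members' early-channel spots were well above background on the 2 automated arrays, against 43.3% and 33.2% on the 2 manual ones.

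Outside the 9 genes, a list of 75 other neuronal adhesion genes was set beside them, from neurexins, neuroligins, contactins, leucine-rich repeat proteins, immunoglobulin-domain proteins, catenins, CSMD proteins, latrophilins and teneurins. Of these, 49 could be tested, 39 had negative means in both lines, and their medians were -1.63 in K562 and -1.66 in U2OS. By the rule for single genes 1 was earlier and 5 were later in K562 (12.2% of the 49, beside 25.2% of all genes). Latest relative to U2OS was TENM2, a teneurin that binds latrophilins across the synapse, with K562 at -1.86 ± 0.83 (SD, n = 3) and U2OS at 0.95 ± 0.15 (SD, n = 4). Its difference was -2.81 (SE 0.34, adjusted p = 6.45e-05 by limma), and next NTM, a neurotrimin of the IgLON family (-2.19, SE 0.40, adjusted p = 0.00118). The gene earlier in K562 was NRCAM, an L1-family adhesion molecule, at 0.82 ± 0.47 in K562 and -0.53 ± 0.77 in U2OS (1.34, SE 0.39, adjusted p = 0.0201). Of the families, 0 of 3 tested neurexins and neuroligins, 0 of 5 leucine-rich repeat genes and 0 of 4 catenins were called, 1 of 5 contactins and relatives, 3 of 25 immunoglobulin-domain genes, 1 of 2 CSMD genes and 1 of 5 latrophilins and teneurins.

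The genes whose values on the 7 arrays lay nearest to the members' median profile, over 1 Mb away from every member, were CNTN1 (a contactin, root mean square distance 0.11 over 7 arrays), NELL1 (0.11), SEMA6D (a transmembrane semaphorin, 0.13), DPP10 (0.14) and CADM2 (a synaptic adhesion molecule, 0.16). Among the members, LRRTM4 (0.12) and CNTN6 (0.14) lay nearest to that profile and CTNNA2 (1.18) and DSCAM (0.82) farthest from it. The distance is a description over arrays that share their scaling.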

How the data were processed

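Replication timing was measured in K562 (3 arrays) and U2OS (4 arrays). Per the file headers, the authors' spot intensity values come from the scanner software Agilent Feature Extraction, version 11.5.1.1, run with a CGH protocol on build hg19 (the submitters' processing notes list version 9.1). Per the file headers, the deposited processed intensity was background-subtracted, spatially and multiplicatively detrended and dye-normalized, with surrogates for signals near background. The tables' deposited log10 ratios (Cy5 over Cy3) were not used for the results. From the processed signals log2(early/late) was computed per spot, control spots and outlier flags were dropped, repeated probes averaged, and each array centred on its median probe of chromosomes 1 to 22 and X.

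Names were those of the array tables; of 27941 names, 2043 older symbols were updated through RefSeq's table (GRCh38.p14, names only) and 9453 with no entry kept. Gene means (at least 3 probes per array), 250-kb windows, gene minus 1-Mb flanks, and the ends (lowest against highest of 3 equal parts) of genes of at least 300 kb were fitted with limma 3.58.1 in R 4.3.3 (lmFit, eBayes, Benjamini-Hochberg over all features). A run of the code on simulated data gave windows the same spread on all arrays, unlike K562 and U2OS here. It thus cannot check the p-values under the unequal spread of the lines. Genes named in the text are the 9 members, the protocol's control loci, the 5 nearest profiles, of the list of other adhesion genes the 2 per direction with the largest called difference, and per member the window of largest difference; BACE2, FAM3B, MX1, TMPRSS2 and LRRTM1 were added after values were seen. The members and lists were chosen with earlier results of these data known. Normexp with an offset of 50, used in an earlier analysis of these data, is an alternative here, beside other background, scaling, spot filter, probe minimum, window, flank and left-out-array settings. Array precision rests on 3 and 4 arrays. Replicate numbers are shared by manual and automated arrays; deviations of same-numbered arrays correlated at 0.0060 over genes, so they were not taken as pairs.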

Additional observations from a re-analysis of the deposited data

Results flagged for a closer look

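Gene minus flanks of NRXN3 was flagged because 1 of the 4 U2OS arrays stood apart: manual 2 had -1.76, against -1.57 to -1.56 on the other 3 arrays. It was 1 flag among 26 groups of 4 arrays tested, and chance flags about 1 group in 20.

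CTNNA2 was flagged for a difference between the lines in its timing relative to its flanks (1.43, with 1.57 in K562 and 0.13 in U2OS, adjusted p = 0.00519 by limma) and along the gene (low minus high end -1.08, with -1.29 in K562 and -0.21 in U2OS, adjusted p = 0.0211 by limma).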

How the results depend on the processing

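Of 225 recomputed counts, 167 stayed within 1.5 times the main count and 58 moved; of 1388 recomputed member values, 354 belonged to a called result, of which 35 lost the call, and 1034 to one not called, of which 39 gained a call. No member value past its threshold changed sign; differences not past it were given no direction. The number of genes called between the lines (1189) was 628 with normexp and an offset of 50, 335 without background correction, 606 with loess, 592 of 1788 testable without surrogate spots, 2423 with 1 probe or more, 501 with 5 or more, and 1109 to 2357 with 1 array left out, the highest without the 44k array, where more genes were testable. Of members, 2 were called; 1 was with normexp 50, loess, one spread (MAD), mean centring, dim or surrogate spots dropped or 1 probe or more, 0 without background correction, and 1 to 2 with 1 array left out. Called windows (2135) numbered 1166 with normexp 50, 601 without background correction, 1080 with loess, 1347 without surrogate spots, 1163 at 500 kb and 1423 with 5 probes; those in members (6) numbered 1 without background correction, 2 without surrogate spots and 4 to 9 with 1 array left out. Genes whose difference from their flanks differed between the lines (1463) numbered 752 without surrogate spots, 907 with 500-kb flanks and 1075 to 2373 with 1 array left out. Ends called (182) numbered 116 without background correction, 59 without surrogate spots, 104 with narrower ends (outermost 1 of 4 equal parts), 96 over probes on all 7 arrays and 158 to 243 with 1 array left out; the 1 member called was 0 with normexp 50, loess, no background correction, dim spots dropped or the narrower ends, and 0 to 1 with 1 array left out.

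Genes called between automated and manual samples (342) numbered 6090 with normexp 50, 1251 with an offset of 0, 5614 without background correction, 6298 with loess, 0 with one MAD, 219 with mean centring, 144 without dim and 894 without surrogate spots, 0 with 1 probe or more, 764 with 5 or more, and 0 to 1804 with 1 array left out; members called (0) numbered 7 with normexp 50, loess or no background correction. With the replicate number as a block 818 genes were called, and 0 with the block and one MAD; the numbers were not taken as pairs. Dropping surrogate spots and keeping only probes on all 7 arrays were chosen after seeing the data. The causes of these shifts were not tested. Signal over background limits the members most on the old-sorting array in the early channel and on the 44k array in the late channel.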
